A study of Mus musculus with 27 samples.

Results

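Genes of cell senescence and of the p53 pathway were examined, chosen by symbol: 9 of the 36333 genes in the deposited table. They are the cyclin-dependent kinase (CDK) inhibitors Cdkn1a, Cdkn2a and Cdkn2b, the transcription factor gene Trp53 and its inhibitor Mdm2, Glb1, Lmnb1 and the secreted factors Il6 and Gdf15. All 9 were found, and each is described at 2 ages, 5 and 20 months, in liver, omental adipose tissue and skeletal muscle. The 20 months are those of the sample titles. The codes in these titles carry a lower number, and the study's supplement lists mice with matching final digits as somewhat younger. The RNA came from male mice of the MlxKO genotype, which were Mlx Flox/Flox and carried the Cre allele Gt(ROSA)26Sortm1(cre/ERT2)Tyj on a B6.129 background. This tamoxifen-dependent Cre is driven from the ROSA26 locus and so is not limited to 1 cell type. Every mouse in all 6 groups had been given 5 daily intraperitoneal injections of tamoxifen at 75 mg/Kg around weaning. There were 4 samples per tissue at 5 months, from the same 4 mice in each tissue, called A to D in ascending order of their numbers in the labels, and 5 per tissue at 20 months, 27 in all. Wild-type mice were not analysed here, so the comparisons ask how the genes differed between young and old MlxKO tissues and do not separate age from the loss of Mlx.

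Senescent cells have left the cell cycle for good, and CDK inhibitors hold them there. Cdkn1a encodes p21, a classical target of p53 that is also induced by glucocorticoids, fasting and stress. Cdkn2a encodes p16Ink4a and, from a separate first exon, p19Arf, which protects p53 by binding Mdm2. Cdkn2b, its neighbour on chromosome 4, encodes p15Ink4b. Mdm2 is both a target of p53 and the ligase that marks p53 for degradation. Glb1 encodes the lysosomal beta-galactosidase behind the histochemical stain for senescent cells. Lmnb1 encodes lamin B1 of the nuclear lamina, which senescent cells lose. Il6 belongs to the secretory phenotype of such cells, and Gdf15 is a circulating stress signal.

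For the 3 members whose levels passed the test with age in at least 1 tissue, the letters shown are those of the DNA upstream of their RefSeq starts, to be read beside the values. Each line holds 240 bases, from 250 to 11 bases before the start, on the gene's own strand in GRCm38.p6. Capitals mark CACGTG, the E-box that Mlx-containing dimers and the rest of the Myc family can bind, and the p53 decamer (3 purines, a C, 2 bases that are A or T, a G and 3 pyrimidines). Both patterns read alike on either strand.
Cdkn1a, chr17:29090729-29090968, plus strand: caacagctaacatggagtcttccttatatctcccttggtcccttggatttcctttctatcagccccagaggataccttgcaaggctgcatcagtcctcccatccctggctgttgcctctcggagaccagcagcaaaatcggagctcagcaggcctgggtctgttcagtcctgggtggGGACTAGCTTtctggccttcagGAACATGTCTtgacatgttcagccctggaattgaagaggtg
Glb1, chr9:114400828-114401067, plus strand: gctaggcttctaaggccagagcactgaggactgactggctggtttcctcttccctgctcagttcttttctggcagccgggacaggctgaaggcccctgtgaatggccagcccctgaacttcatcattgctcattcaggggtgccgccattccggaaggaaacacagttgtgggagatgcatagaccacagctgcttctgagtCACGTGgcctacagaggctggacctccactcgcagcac
Cdkn2a, start of p16Ink4a, chr4:89282203-89282442, minus strand: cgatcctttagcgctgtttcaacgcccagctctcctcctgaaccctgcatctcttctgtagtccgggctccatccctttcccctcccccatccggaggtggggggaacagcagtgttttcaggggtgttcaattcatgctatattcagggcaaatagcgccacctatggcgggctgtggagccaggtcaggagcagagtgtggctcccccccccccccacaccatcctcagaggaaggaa
The Cdkn1a window held 2 p53 decamers, beginning 73 and 51 bases before this start, and the window before its other start in RefSeq held none. The Glb1 window held 1 CACGTG, 48 bases before the start. Neither pattern was found in the Cdkn2a window printed or before its distal start, which makes p19Arf. Over 11 windows of 8 members, CACGTG was found in 2 (Glb1 and 1 of the 2 Gdf15 starts) and the decamer in 4 (Cdkn1a, Mdm2, Trp53 and Il6). Among 32851 windows of RefSeq genes, 5.69% held CACGTG and 6.87% the decamer. CATG, a form the core of the decamer can take and does in 1 of the 2 Cdkn1a matches, was in 5 of the 11 windows and in 52.9% of all windows. These matches describe the letters only. Cdkn1a was added to the pair that moved together, Cdkn2a and Glb1 in adipose tissue, after its values were seen.

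The values are reads per gene scaled to each sample, and 14384695 to 25673919 reads per sample fell on genes. One read was worth 0.0234 to 0.0806 on the deposited scale, so a gene at 0 was below what 3 reads can show, 0.0703 to 0.242. Mlx itself was at 101 to 522 reads per sample. Its value sums all its exons, the undeleted ones included, and does not check the deletion. By quantitative RT-PCR, the study's supplement reports more Mlx RNA left in MlxKO skeletal muscle than in liver or adipose tissue, relative to wild type. The loss of Mlx was thus less complete in skeletal muscle, which limits comparisons between the tissues. The 3 tissues carried their own markers: the 5 hepatocyte genes summed to 38940 to 147400 in liver and the 5 muscle fibre genes to 119200 to 152900 in skeletal muscle. The 5 adipocyte genes summed to 5886 to 13230 in adipose tissue. One liver at 20 months, sample 74, had the lowest hepatocyte sum and stood apart for 3 p53-linked genes described further on. Changes with age were tested by limma on log2(value + 1) with Benjamini-Hochberg adjustment over all genes that reached a value of 1 in 4 or more of the 9 samples of a tissue, and "called" means an adjusted p under 0.05. On this scale the change of low genes is understated. In whole tissue, fewer cells of a type and less RNA per cell cannot be told apart.

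Of the 9 members, 8 could be tested in adipose tissue, 6 in liver and 5 in skeletal muscle, since the others were below the filter. Cdkn1a was lower at 20 months in liver and skeletal muscle, and Cdkn2a and Glb1 were higher at 20 months in adipose tissue. No other member was called in any tissue. The calls were 1 of 6 members in liver, where 19.8% of all 12654 genes tested were called, 2 of 8 in adipose tissue, where 19.1% of 14005 were, and 1 of 5 in skeletal muscle, where 19.3% of 12720 were. In adipose tissue 1 of the 2, Cdkn2a, passed the filter through the old samples alone. The median log2 change of the members tested was 0.38 in adipose tissue, 0.08 in liver and -0.02 in skeletal muscle, against 0.01, 0.00 and 0.02 for all genes tested. The ages did not overlap for the same 4 pairs of member and tissue, against 19.1% of all genes tested in liver, 17.4% of those in adipose tissue and 17.3% of those in skeletal muscle. The shares over all genes depend on single samples. With age in adipose tissue 2674 genes were called, but 397 of 13714 without mouse A and 596 of 13696 without mouse B, and in liver 2508 fell to 959 of 12490 without sample 18.

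**Figure D1:**
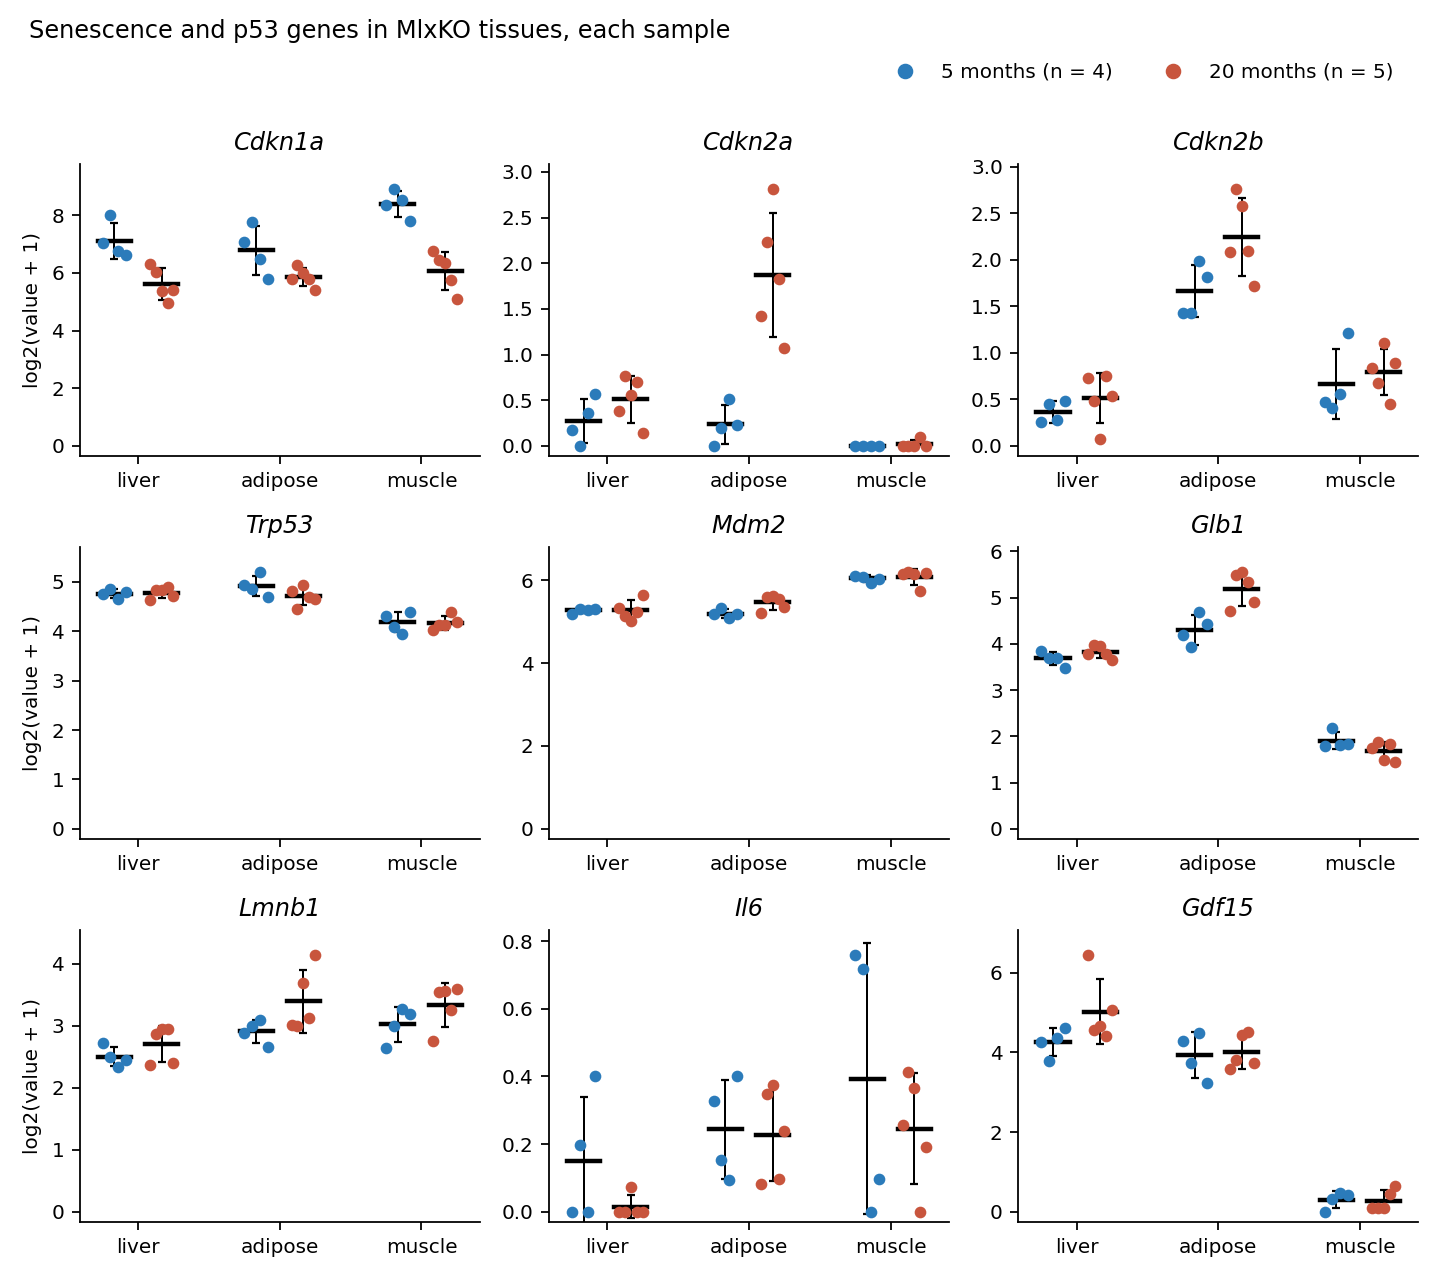
Each panel shows 1 of the 9 genes as log2(value + 1) (y axis) in liver, adipose tissue and skeletal muscle (x axis), with blue points for 5 months (n = 4), red points for 20 months (n = 5), a black line for the mean and bars for the SD. Cdkn1a is lower in red in liver and skeletal muscle, Cdkn2a and Glb1 are higher in red in adipose tissue, and Il6 is close to 0 in all groups.

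**Figure D2:**
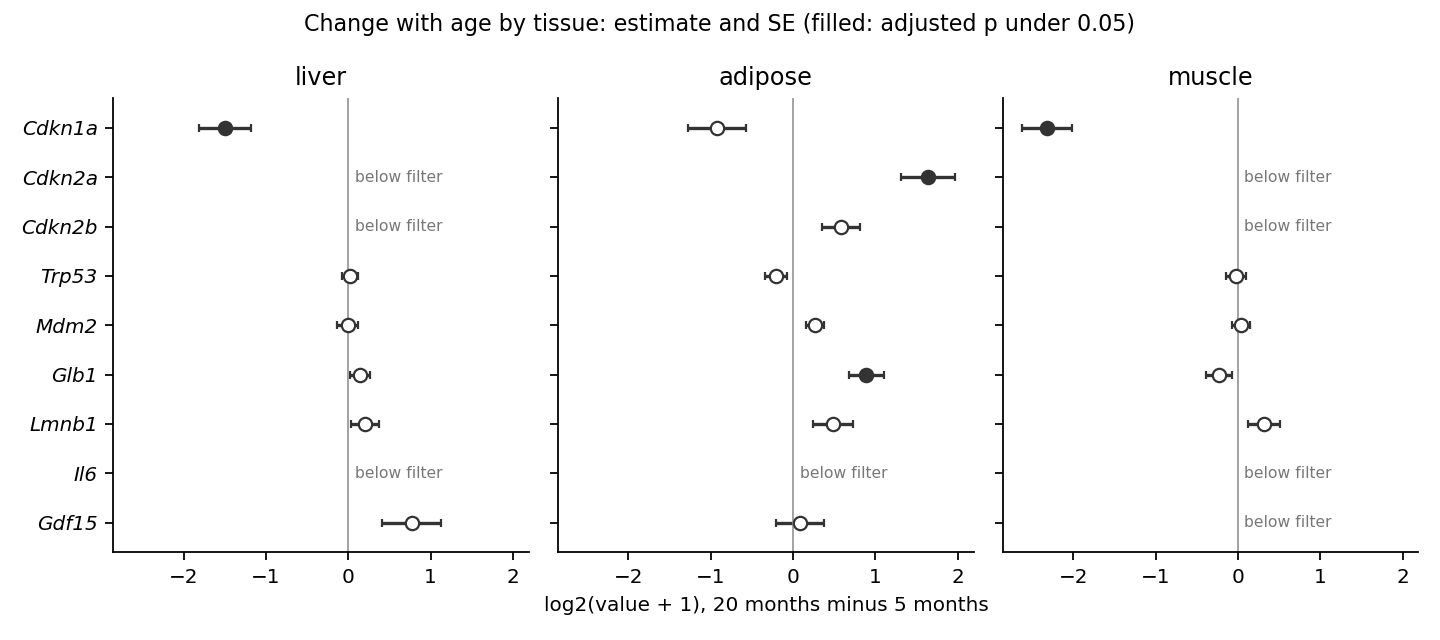
Points give the limma estimate of the difference in log2(value + 1), 20 minus 5 months (x axis), for each member (y axis) in each tissue, with bars for the standard error and filled points for an adjusted p under 0.05. The 4 filled points are Cdkn1a in liver (-1.50) and skeletal muscle (-2.32) and Cdkn2a (1.64) and Glb1 (0.89) in adipose tissue.

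Cdkn1a (ID 12575; chromosome 17, 29090979 to 29100722 in GRCm38.p6) was the member with the most RNA per kilobase of exon in 5 of the 6 groups. In liver at 5 months its values were 129.8 in mouse A, 257.0 in B, 106.9 in C and 98.6 in D. At 20 months they were 78.4, 63.7, 40.6, 29.8 and 41.1. Every old liver was below every young one, and the mean fell from 148.1 ± 73.8 (SD, n = 4) to 50.7 ± 19.8 (SD, n = 5), 2.92-fold. The log2 change was -1.50 (standard error 0.318, limma adjusted p = 0.0136).

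In skeletal muscle Cdkn1a was at 327.6, 476.1, 366.3 and 222.6 in the same 4 mice at 5 months. The 20-month samples were at 106.9, 87.3, 80.0, 52.4 and 33.4, so here too the ages did not overlap. The mean fell from 348.2 ± 104.7 (SD, n = 4) to 72.0 ± 29.1 (SD, n = 5), 4.83-fold. On the log2 scale the change was -2.32 (standard error 0.307, limma adjusted p = 0.0017). Both calls held in each fit with 1 sample left out and in all 11 other settings of the analysis, where the adjusted p was at most 0.0401.

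In adipose tissue Cdkn1a was at 134.5, 217.9, 88.7 and 54.0 at 5 months and at 54.6, 77.2, 62.9, 54.7 and 41.2 at 20 months. The ages overlapped, because mouse D lay within the range of the old samples. The means were 123.8 ± 70.9 (SD, n = 4) and 58.1 ± 13.2 (SD, n = 5), and the log2 change of -0.92 was not called (standard error 0.352, limma adjusted p = 0.0840). Without mouse D it was called (-1.26, limma adjusted p = 0.0196), as it was with sample weights (-1.23) and by DESeq2 on the recovered reads (-1.13). Over these settings and those with another sample left out, the adjusted p ran from 0.000814 to 0.198. Cdkn1a was therefore not among the 47 of 11014 genes (0.427%) called lower in all 3 tissues.

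Mouse B had the highest Cdkn1a of the 4 young mice in all 3 tissues, 1.98 times the next mouse in liver, 1.62 times in adipose tissue and 1.30 times in skeletal muscle, and mouse D had the lowest in all 3. Without mouse B the young mean was 111.8 ± 16.2 (SD, n = 3) in liver, still 2.20 times the old mean. In skeletal muscle it was 305.5 ± 74.4 (SD, n = 3), 4.24 times the old mean. In adipose tissue it was 92.4 ± 40.3 (SD, n = 3), 1.59 times the old mean, and the log2 change there was -0.59 (limma adjusted p = 0.198). The size of the fall differed between skeletal muscle and adipose tissue by 1.39 on the log2 scale, which did not pass the test of the difference over all 27 samples (standard error 0.517, limma adjusted p = 0.0697). With adipose tissue of mouse B left out, this difference passed (limma adjusted p = 0.0306).

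**Figure D3:**
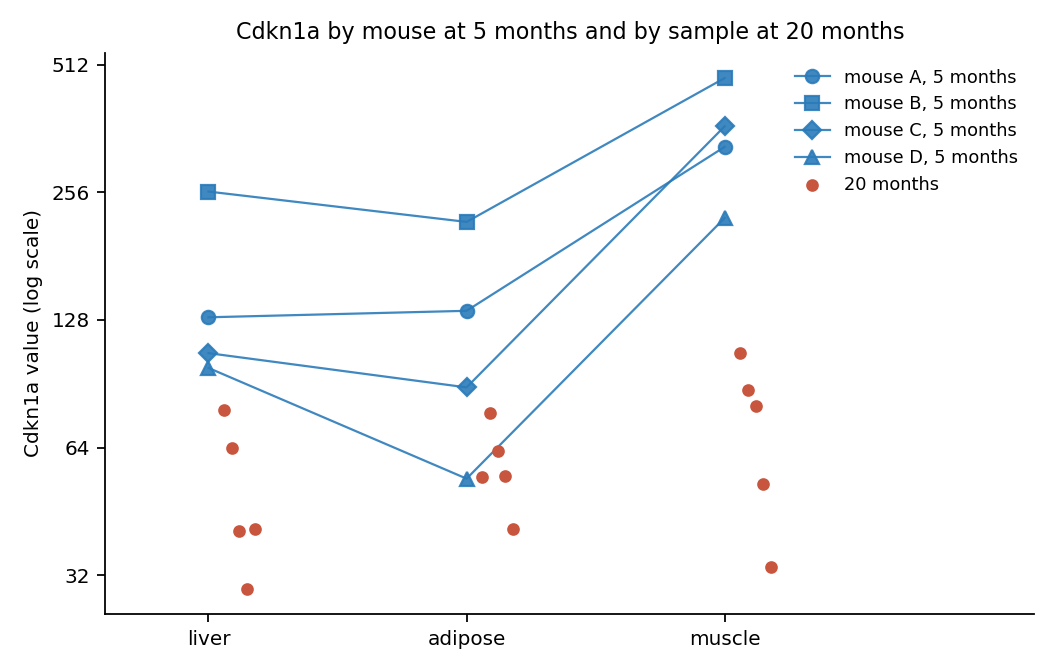
Cdkn1a values (y axis, log scale) in the 3 tissues (x axis), with blue lines joining the tissues of each 5-month mouse and red points for the 20-month samples. Mouse B is highest and mouse D lowest in all 3 tissues, and the red points lie below all blue ones in liver and skeletal muscle and among them in adipose tissue.

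The 3 genes whose levels followed Cdkn1a most closely over the 27 samples, once the mean of each tissue was subtracted, were Fmnl2 (Pearson r = 0.91), Serinc3 (0.91) and Clip1 (0.90), given as a description, since samples of 1 mouse are included. Marker genes of other cells moved beside the 2 falls. In liver, Tat, 1 of the 5 hepatocyte markers and a glucocorticoid-inducible enzyme gene, was lower (log2 change -1.87, limma adjusted p = 0.0112). None of the other hepatocyte markers was called (Alb -0.86, Apoa1 -0.05, Ttr -0.03 and Cyp7a1 0.45). The sum of the 5 ran from 92320 to 147400 at 5 months and from 38940 to 89610 at 20 months. In liver 4 of 5 red blood cell genes were higher. In skeletal muscle, 3 of 6 macrophage markers were lower (Cd68, Mrc1 and Csf1r; sums of 113.0 to 194.4 and 65.4 to 130.7), as were 3 of 4 fibroblast markers (Col1a1, Dcn and Pdgfra; sums of 770.7 to 1054 and 403.0 to 742.5). None of these markers was at 0 in those tissues, and their part in the Cdkn1a values was not tested.

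Cdkn2a (ID 12578; chromosome 4, 89274473 to 89294619) rose in adipose tissue from close to the limit of detection. The 4 samples at 5 months held 0, 4, 13 and 6 reads, values of 0, 0.148, 0.431 and 0.175. The 5 at 20 months held 57, 95, 202, 109 and 37 reads, values of 1.68, 3.70, 6.01, 2.55 and 1.11. The lowest old sample was thus above the highest young one, and the mean went from 0.188 ± 0.179 (SD, n = 4) to 3.01 ± 1.94 (SD, n = 5), 16-fold. The log2 change on the log2(value + 1) scale was 1.64 (standard error 0.327, limma adjusted p = 0.0172). Cdkn2a passed the filter through the old samples alone, and with no filter its adjusted p was 0.0294. The call was lost when mouse A, whose value was 0, was left out (1.56, limma adjusted p = 0.0558). Reads of p16Ink4a and p19Arf share exons and are summed in this value, so the table does not say which transcript rose.

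In the other tissues Cdkn2a stayed below the filter. In liver it rested on 0 to 6 reads at 5 months (0.223 ± 0.207, SD, n = 4) and 2 to 14 at 20 months (0.442 ± 0.244, SD, n = 5), which the exact two-sided permutation test did not separate (unadjusted p = 0.222). In skeletal muscle 8 of the 9 samples had no read and the other had 1. The age change in adipose tissue exceeded that in liver by 1.40 (standard error 0.313, limma adjusted p = 0.00417) and that in skeletal muscle by 1.62 (limma adjusted p = 0.00191) on the log2(value + 1) scale. Cdkn2a passed the filter over all samples through the old adipose samples alone, so the filter favoured these 2 differences. They were not called on the recovered reads, of which liver and skeletal muscle held 0 to 14 per sample. There edgeR gave an adjusted p of 0.0886 and 0.917, and DESeq2 0.0604 and 0.154.

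Cdkn2b (ID 12579; chromosome 4, 89306289 to 89311032, overlapping Gm12610), beside Cdkn2a on the chromosome, passed the filter only in adipose tissue. It was at 1.69, 1.70, 2.95 and 2.53 at 5 months and 3.24, 5.76, 4.97, 3.28 and 2.30 at 20 months, resting on 46 to 167 reads. Of the 5 old samples, 4 were above all young ones, and sample 40 was not. The log2 change of 0.58 was not called (standard error 0.232, limma adjusted p = 0.0954), although it was with sample weights and when all 27 samples shared 1 fit. In liver it rested on 1 to 13 reads and in skeletal muscle on 4 to 19, and the ages overlapped in both (exact two-sided permutation tests, unadjusted p = 0.310 and 0.627).

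Glb1 (ID 12091; chromosome 9, 114401078 to 114474379, overlapping Tmppe and Gm30254), whose upstream window holds the CACGTG, rose in adipose tissue. It was at 17.2, 14.2, 24.7 and 20.5 at 5 months and at 25.1, 43.8, 45.8, 39.6 and 28.9 at 20 months. The gap between the ages was small, with mouse C at 24.7 just under sample 36 at 25.1. The mean went from 19.2 ± 4.49 (SD, n = 4) to 36.6 ± 9.17 (SD, n = 5), 1.91-fold, or 0.89 on the log2 scale (standard error 0.213, limma adjusted p = 0.0273). The call was lost in 5 of the 9 fits with 1 sample left out, those without mouse A (limma adjusted p = 0.0765), mouse B (0.0737) and samples 37 (0.0598), 38 (0.0549) and 39 (0.0630), with log2 changes of 0.77 to 0.85.

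In liver Glb1 was at 11.9 ± 1.28 (SD, n = 4) and 13.2 ± 1.29 (SD, n = 5), and in skeletal muscle at 2.77 ± 0.519 (SD, n = 4) and 2.22 ± 0.437 (SD, n = 5). Neither change was called (log2 change 0.14 and -0.23, limma adjusted p = 0.416 and 0.305). The age change in adipose tissue was larger than in liver by 0.75 (standard error 0.235, limma adjusted p = 0.0316) and than in skeletal muscle by 1.12 (limma adjusted p = 0.00326). The difference from liver was not called with a pseudocount of 0.1 (adjusted p = 0.0531), nor when samples were scaled without the 20 most abundant genes (-0.55 for liver minus adipose tissue, adjusted p = 0.0730). Of 8 members tested, 2 were called in liver against adipose tissue, where 15.6% of 15572 genes were, and the same 2 in adipose tissue against skeletal muscle, where 14.7% were. They were Glb1 and Cdkn2a. The filter favoured Cdkn2a, and neither of its differences was called on the recovered reads. Between liver and skeletal muscle limma, edgeR and DESeq2 called 0 of 8, with 0 at an unadjusted limma p under 0.05, where 17.5% of genes were called.

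Both genes that rose in adipose tissue moved beside macrophage genes. The 6 macrophage markers summed to 636.3 to 1455 at 5 months and 889.2 to 5045 at 20 months, none was at 0, and 1 of the 6, Adgre1, was called (log2 change 1.58, limma adjusted p = 0.0398), a call lost in 7 of the 9 fits with 1 sample left out. Sample 38 had the highest sum (5045), the highest Cdkn2a (6.01) and the highest Glb1 (45.8), followed in all 3 by samples 37 (3165) and 39 (2597). Samples 36 and 40, with sums of 889.2 and 1352, lay within the young range of the sum (636.3 to 1455) and were above all young samples in Cdkn2a and Glb1. The genes closest to Cdkn2a over the 27 samples were Vsig8 (r = 0.92), Itgad (0.92) and Ctsd (0.91), and those closest to Glb1 were Prcp (0.92), Mcoln2 (0.91) and Ctsb (0.91). Itgad encodes a leukocyte integrin, and Ctsd and Ctsb lysosomal cathepsins. For these r the mean of each tissue was subtracted, and the ages were not separated. Cdkn2a held 0 to 14 reads in every sample outside old adipose tissue, so its r rests mostly on the old adipose samples. The 4 B cell markers were all higher at 20 months in adipose tissue (sums of 2.96 to 15.1 and 11 to 150.0), and 2 of 3 endothelial markers were lower (Pecam1 and Kdr; sums of 517.9 to 1187 and 313.8 to 602.0). Lower too were 2 of 4 mesothelial and 2 of 5 red blood cell genes. With 1 sample left out, Pecam1 lost its call in 6 of 9 fits and the B cell marker Ms4a1 in 5. The mesothelial marker Krt19 lost its call in 8 and the red blood cell gene Hba-a2 in 7. The part of these cells in the rises of Cdkn2a and Glb1 was not tested.

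**Figure D4:**
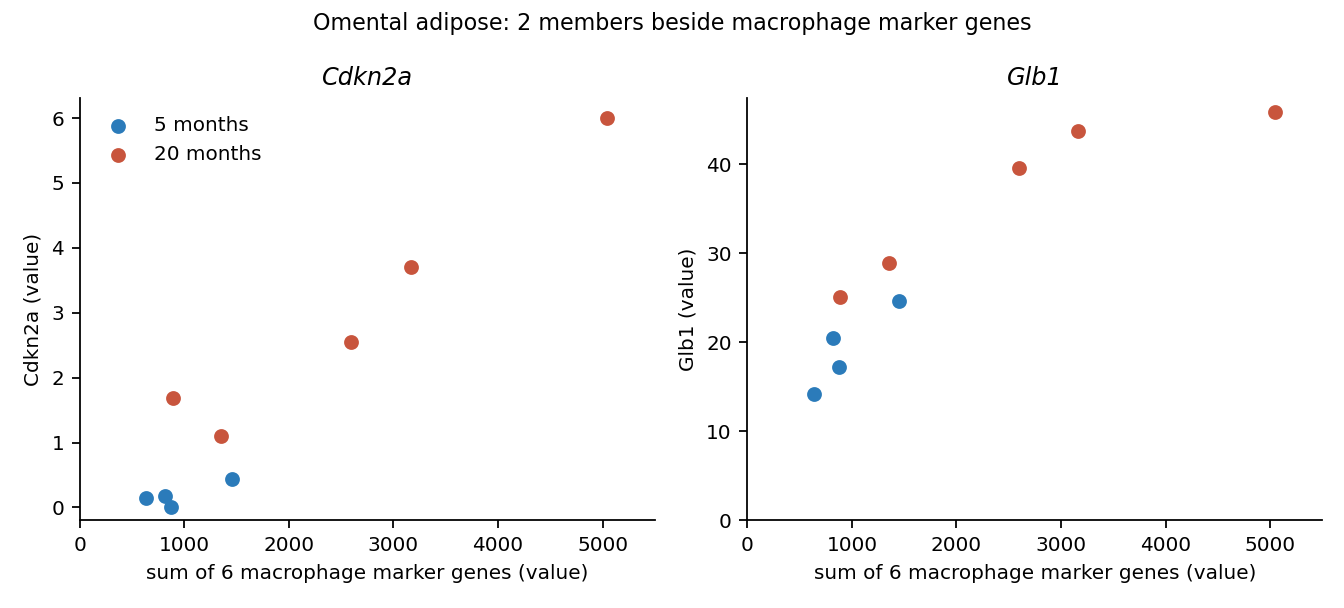
Cdkn2a (left) and Glb1 (right) values (y axes) in the 9 adipose tissue samples against the summed value of 6 macrophage marker genes (x axis), with blue points for 5 months and red for 20 months. The 3 old samples with sums of 2597 to 5045 have the highest values of both genes, and the 2 old samples with sums of 889.2 and 1352 lie above the young samples.

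Trp53 (ID 22059; chromosome 11, 69580348 to 69591873) hardly moved. In liver it was at 26.0, 28, 24 and 26.8 at 5 months and 23.9, 27.5, 27.4, 28.8 and 25.3 at 20 months. In skeletal muscle the means were 17.4 ± 2.58 (SD, n = 4) and 17 ± 1.80 (SD, n = 5), and in adipose tissue 29.5 ± 4.53 (SD, n = 4) and 25.3 ± 3.18 (SD, n = 5). The log2 changes were 0.02 (standard error 0.0977), -0.21 (0.131) and -0.02 (0.122) in the 3 tissues in the order liver, adipose, muscle, with limma adjusted p of 0.907, 0.252 and 0.918. The Trp53 level says nothing of the p53 protein, which is mostly set by its degradation.

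Mdm2 (ID 17246; chromosome 10, 117688875 to 117710758), the target and inhibitor of p53, did not follow Cdkn1a. Its means at 5 and 20 months were 37.8 ± 1.56 (SD, n = 4) and 38.1 ± 6.96 (SD, n = 5) in liver and 65.1 ± 3.35 (SD, n = 4) and 67.3 ± 8.51 (SD, n = 5) in skeletal muscle. The log2 changes were -0.00 and 0.04 (limma adjusted p = 0.985 and 0.819), in the tissues where Cdkn1a changed by -1.50 and -2.32. In adipose tissue it was at 35.2, 39.5, 33.0 and 35.4 at 5 months and 36.3, 47.3, 48.0, 45.6 and 39.9 at 20 months. That change of 0.27 was not called (standard error 0.110, limma adjusted p = 0.102), and was with sample 36 left out (limma adjusted p = 0.0462).

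Lmnb1 (ID 16906; chromosome 18, 56707813 to 56753424) was not lower at 20 months in any tissue. Its mean went from 4.70 ± 0.650 (SD, n = 4) to 5.64 ± 1.31 (SD, n = 5) in liver, from 6.56 ± 0.937 to 10.1 ± 4.18 in adipose tissue and from 7.25 ± 1.52 to 9.37 ± 2.26 in skeletal muscle. The log2 changes were 0.20, 0.48 and 0.32 (limma adjusted p = 0.417, 0.161 and 0.253), and the ages overlapped in all 3 tissues. In adipose tissue the highest samples were 40 (16.6) and 38 (11.9), and the other 3 old samples (7.01 to 7.71) lay close to the young range (5.33 to 7.50). The gene closest to Lmnb1 over the 27 samples was Mcm4 (r = 0.74), which encodes a subunit of the replicative helicase.

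Il6 (ID 16193; chromosome 5, 30013114 to 30019975, overlapping A230098N10Rik) was below the filter in all 3 tissues. In liver it rested on 0, 2, 0 and 4 reads at 5 months and on 1 read in 1 of 5 samples at 20 months. In adipose tissue it had 2 to 11 reads at 5 months and 2 to 10 at 20 months, and in skeletal muscle 0 to 9 and 0 to 5. Its highest value in any sample was 0.692, in muscle of mouse A, and the ages overlapped in every tissue (exact two-sided permutation tests, unadjusted p = 0.167, 0.841 and 0.397). A difference in Il6 was not detectable at this depth.

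Gdf15 (ID 23886; chromosome 8, 70629393 to 70632470) was measured well in liver and adipose tissue. In liver it was at 18.1, 12.7, 19.7 and 23.6 at 5 months and at 85.8, 22.7, 24.3, 20.2 and 32.3 at 20 months, with sample 16 far above all the others. The log2 change of 0.77 was not called (standard error 0.364, limma adjusted p = 0.148), although DESeq2 on the recovered reads called it (1.0, adjusted p = 0.0430). Without sample 16 the change was 0.41 (limma adjusted p = 0.131). In adipose tissue the means were 15.2 ± 5.95 (SD, n = 4) and 15.8 ± 5.18 (SD, n = 5), or 0.08 on the log2 scale (limma adjusted p = 0.847). Skeletal muscle held 0 to 8 reads of Gdf15 in each sample, with overlapping ages (exact two-sided permutation test, unadjusted p = 0.968).

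The members were also compared between tissues. At 5 months 6 of 8 members tested were called for liver against skeletal muscle (72.9% of 15572 genes were), 6 for adipose tissue against skeletal muscle (72.8%) and 2 for liver against adipose tissue (76.4%). Cdkn1a was highest in skeletal muscle at 5 months, above liver by 1.29 and above adipose tissue by 1.61 on the log2 scale (limma adjusted p = 0.00423 and 0.000589), and liver and adipose tissue were not separated (0.33, adjusted p = 0.446). At 20 months no pair of tissues was separated in Cdkn1a (limma adjusted p = 0.215 to 0.566). Glb1 was highest in adipose tissue, then liver, then skeletal muscle at both ages, with each step called. Adipose tissue was above liver by 0.62 at 5 months and 1.37 at 20 months (limma adjusted p = 0.00248 and 1.6e-08).

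At 20 months the calls were 5 of 8 members for liver against adipose tissue (74.5% of all genes), 6 for liver against skeletal muscle (77.2%) and 6 for adipose tissue against skeletal muscle (76.0%). Each of these counts includes Cdkn2a, which was below the filter in liver and in skeletal muscle. Cdkn2a was at 37 to 202 reads in adipose tissue at 20 months, against 2 to 14 in liver and 0 to 1 in skeletal muscle. Adipose tissue was above liver by 1.36 and above skeletal muscle by 1.85 in it on the log2(value + 1) scale. Cdkn2a passed the filter over all samples through the old adipose samples alone. The filter thus favoured these differences, and their p-values are not given. Its call between liver and skeletal muscle rests on the few reads given above. No pair of tissues differed in Cdkn2a at 5 months (limma adjusted p = 0.295 to 0.890). Cdkn2b was higher in adipose tissue than in liver and skeletal muscle at both ages, and liver and skeletal muscle were not separated. Trp53 was lower and Mdm2 higher in skeletal muscle than in the other tissues at both ages, and liver and adipose tissue were not separated in either. Gdf15 was lowest in skeletal muscle, and liver exceeded adipose tissue at 20 months by 1.01 (limma adjusted p = 0.00372) but was not separated from it at 5 months. Lmnb1 was lower in liver than in skeletal muscle at both ages and than in adipose tissue at 20 months. These orders depend on how tissues are scaled to each other. With samples scaled without the 20 most abundant genes, the median gene moved from -0.07 to -0.87 between liver and adipose tissue at 5 months, and there Mdm2 turned from 0.08 to -0.89. The Mdm2 difference between adipose tissue and skeletal muscle then went from -0.85 to -0.14 at 5 months and from -0.62 to -0.05 at 20 months and was no longer called, Lmnb1 of that pair at 5 months turned from -0.11 to 0.52, and Trp53 of liver against adipose tissue at 20 months turned from 0.07 to -0.66.

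Other targets of p53 were set beside Cdkn1a. Of 30 listed, 6 of 27 tested were higher and 2 lower at 20 months in liver, 5 and 4 of 29 in adipose tissue, and 5 and 5 of 27 in skeletal muscle. Together 8, 9 and 10 were called, beside the 19.8%, 19.1% and 19.3% of all genes given above. The median change of the list was 0.28, 0.10 and -0.06 in the 3 tissues, against 0.00, 0.01 and 0.02 for all genes tested, so the list's medians did not follow the fall of Cdkn1a. With 1 sample left out, the higher and lower counts ran from 2 to 8 and from 1 to 3 in liver, from 0 to 7 and from 0 to 5 in adipose tissue, and from 2 to 6 and from 4 to 7 in skeletal muscle, and both adipose counts were 0 without mouse A or mouse B. The largest rise in liver was of Phlda3, an inhibitor of Akt signaling, from 1.39 ± 0.243 (SD, n = 4) to 5.43 ± 3.63 (SD, n = 5) (log2 change 1.29, limma adjusted p = 0.0170), and the largest fall was of Ei24 (-0.45). In adipose tissue they were of Ccng1, the cyclin G1 gene, from 57.3 ± 11.1 (SD, n = 4) to 117.1 ± 32.5 (SD, n = 5) (1.0, limma adjusted p = 0.0196), and of Sesn2 (-1.16, adjusted p = 0.0420). In skeletal muscle Tigar rose most (1.0, adjusted p = 0.0445) and Btg2, an antiproliferative early-response gene, fell most, from a mean of 266.4 to 40.2 (-2.32, limma adjusted p = 0.0143). Sesn2 and Tigar each lost their call in 6 of the 9 fits with 1 sample left out.

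Phlda3 was called in liver alone, and its changes of 1.37 in adipose tissue and 0.57 in skeletal muscle did not pass (limma adjusted p = 0.108 and 0.0935). Ccng1 changed by 0.55 in liver and 0.22 in skeletal muscle (adjusted p = 0.0593 and 0.141). Bax, a proapoptotic Bcl2 relative, rose in the old livers, from 18.4 ± 1.69 (SD, n = 4) to 28.5 ± 3.25 (SD, n = 5) without overlap (log2 change 0.61, limma adjusted p = 0.0104), and changed by 0.67 in adipose tissue (adjusted p = 0.0604) and -0.02 in skeletal muscle. Eda2r, a receptor of the tumor necrosis factor family, rose in the old muscles, from 44.7 ± 8.48 (SD, n = 4) to 83.6 ± 20.5 (SD, n = 5), also without overlap (0.88, limma adjusted p = 0.00973). Its change was 0.90 in liver (adjusted p = 0.0875) and 0.05 in adipose tissue. Zmat3 was not called in any tissue (-0.06, 0.03 and -0.06), nor was Mdm4, the partner of Mdm2 (0.49, -0.23 and 0.05). Sesn2 changed by -0.26 in liver and -0.35 in skeletal muscle, neither called. In the liver of sample 74, Phlda3 (11.8), Eda2r (8.07) and Mdm4 (110.8) were each far above the other 4 old livers, and Phlda3 kept its call without it. Ccng1 in liver passed without sample 74 or without sample 16. In adipose tissue Ccng1 lost its call without mouse A or mouse B (adjusted p up to 0.0621).

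**Figure D5:**
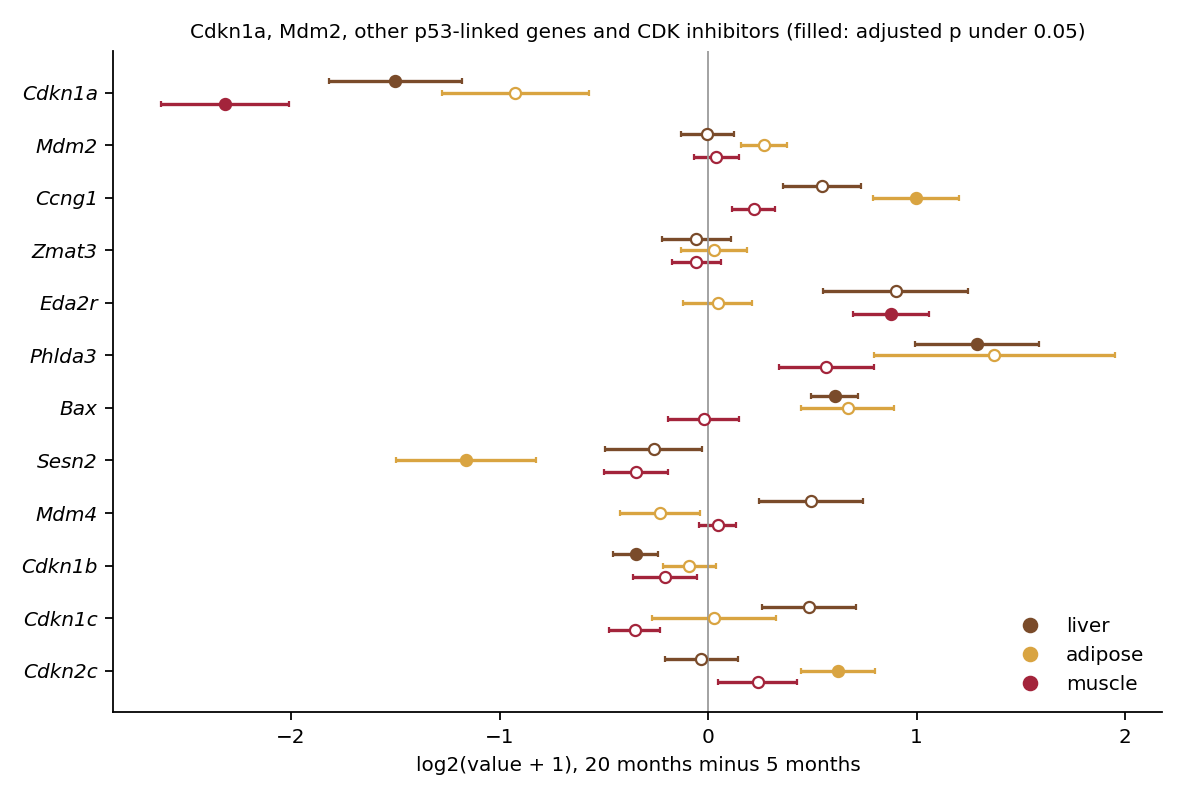
Limma estimates of the difference in log2(value + 1), 20 minus 5 months (x axis), with standard errors, for Cdkn1a, Mdm2, 7 other p53-linked genes and 3 further CDK inhibitors (y axis) in liver (brown), adipose tissue (yellow) and skeletal muscle (red), filled where the adjusted p is under 0.05. Cdkn1a lies left of 0 in all 3 tissues (-1.50, -0.92 and -2.32), and Phlda3 lies right of 0 in all 3 (1.29, 1.37 and 0.57).

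The other CDK inhibitors moved in both directions and by less than Cdkn1a. Cdkn1b, which encodes p27, fell in the old livers, from 28.7 ± 3.14 (SD, n = 4) to 22.3 ± 1.63 (SD, n = 5), or -0.35 on the log2 scale (limma adjusted p = 0.0432), a call lost in 8 of the 9 fits with 1 sample left out, all but the fit without sample 74, and in 4 of 11 other settings. Scaled without the 20 most abundant genes, that change was -0.18. In adipose tissue Cdkn2c, the gene of p18Ink4c, rose from 18.2 ± 3.68 (SD, n = 4) to 28.5 ± 5.27 (SD, n = 5) (0.62, limma adjusted p = 0.0394), and Cdkn2d, that of p19Ink4d, rose most (0.79, adjusted p = 0.0260). Each of these 2 calls was lost in 6 of the 9 fits with 1 sample left out. Cdkn1c, which encodes p57, was not called in liver (0.48), adipose tissue (0.03) or skeletal muscle (-0.35). Limma called 1 of the 4 tested lower in liver (19.8% of all genes were called) and 2 of 4 higher in adipose tissue (19.1%). In skeletal muscle it called 0 of 4, with 1 (Cdkn1c) at an unadjusted p under 0.05, and edgeR and DESeq2 on the recovered reads each called 1 lower. Among 13 to 14 G1 kinases, cyclins, pocket proteins and E2f genes, E2f1 rose most in liver (0.89, limma adjusted p = 0.0114) and E2f2 in adipose tissue (1.35, adjusted p = 0.0125). The called genes were 2 higher and 1 lower of 13 in liver (19.8% of all genes were called), 5 and 1 of 14 in adipose tissue (19.1%), and 2 and 2 of 12 in skeletal muscle (19.3%), where Rbl1 rose most (0.70) and Ccnd3 fell most (-0.61). The 5 in adipose tissue were 2 without mouse A and 3 without sample 39. E2f2 in liver and Ccne1 in adipose tissue passed the filter through the old samples alone.

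The genes of cell division did not fall in the tissue where Cdkn2a rose. In adipose tissue 9 of 14 were higher and 0 lower at 20 months, with a median log2 change of 0.95 against 0.01 for all genes tested, of which 19.1% were called. Tk1, the thymidine kinase of S phase, rose most there, from a mean of 0.997 to 4.36 (1.37, limma adjusted p = 0.0180), and Mki67, Mcm5, Top2a, Aurkb, Cdk1, Birc5, Bub1 and Pcna were the others. Bub1 passed the filter through the old samples alone. Their levels were low, with the 14 genes together at 47.4 to 73.5 in the young samples, and every old sample was higher, from 75.2. In liver 2 of 9 were higher (Top2a, which passed the filter through the old samples alone and lost its call in 4 of the 5 left-out fits that could test it, and Mcm5), and in skeletal muscle 1 of 7 was lower (Rrm2, -0.77). Of all genes tested, 19.8% were called in liver and 19.3% in skeletal muscle. The adipose count rested on few samples: it was 1 without mouse A or B, 2 without sample 37, 38, 39 or 40, 5 without mouse D, 6 without mouse C and 14 without sample 36. B cell markers were higher in the same tissue, as given above, and the part of such cells in this count was not tested. Among 8 lamin and nuclear envelope genes, Tmpo and Emd were lower in liver, Emd in adipose tissue (-0.72, limma adjusted p = 0.0210) and Lmna in skeletal muscle (-0.52, adjusted p = 0.0485). With 1 sample left out, Tmpo lost its call in 3 of 9 fits, Emd in adipose tissue in 3 and Lmna in 8.

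Glb1 rose with other lysosomal enzymes of its kind in adipose tissue. Of 15 glycosidases and their protective proteins, 6 were higher and 0 lower (19.1% of all genes were called), and the median log2 change was 0.70. Gusb, the lysosomal beta-glucuronidase, rose most, from a mean of 35.8 to 122.7 (1.62, limma adjusted p = 0.0246; lost in 4 of 9 fits with 1 sample left out), and Hexa, Ctsa, Galc and Gaa were among the others. Ctsa encodes the protective protein of the complex that holds Glb1. In liver 3 of 15 were higher, Neu1 and Fuca1 among them (19.8% of all genes were called), and in skeletal muscle 2 (Galc 0.36 and Fuca1; 19.3% of all genes), with medians of 0.10 and -0.06. The adipose count of 6 fell to 0 without mouse A, mouse B, sample 37 or sample 39, to 1 without sample 38 and to 3 without sample 40, and was 10 without sample 36. The muscle count of 2 was 0 in 7 of the 9 such fits and 1 in another, while the liver count stayed at 3 or 4.

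Among secreted factors named for senescent cells, those called in liver were all higher at 20 months and those called in skeletal muscle were nearly all lower. Of 35 listed, 12 of 26 tested were higher and 0 lower in liver, 8 and 1 of 32 in adipose tissue, and 1 and 10 of 22 in skeletal muscle, beside the 19.8%, 19.1% and 19.3% of all genes called. The medians were 0.79, 0.14 and -0.62. Mmp12, a macrophage metalloprotease, rose most in liver, from a mean of 0.910 to 23.7 (3.24, limma adjusted p = 0.0089), and in adipose tissue, from 74.3 to 995.9 (3.17, adjusted p = 0.0372). In liver the chemokine genes Cxcl10, Cxcl1 and Ccl5 and the cytokine gene Il1b were also higher. Immune markers moved beside them in liver. Lyz2, 1 of 6 macrophage markers, was higher (1.73, limma adjusted p = 0.0164), with sums of 145.3 to 251.5 at 5 months and 167.8 to 603.6 at 20 months. None of the other macrophage markers was called, with Mrc1 at -0.51 (limma adjusted p = 0.0781) and the rest at 0.72 to 0.98. All 4 B cell markers and Cd8a, the 1 T cell marker tested, were also higher. Cd8a passed the filter through the old samples alone and lost its call in 4 of the 5 left-out fits that could test it. The part of these cells was not tested. Mmp13 (liver and adipose tissue) and Plaur (liver) passed the filter through the old samples alone. In skeletal muscle Mmp13 fell most (-2.08, adjusted p = 0.0252), with Ccl2, Ccl7 and Timp1 among the others that were lower, and Vegfa was the 1 that rose (0.73, adjusted p = 0.0406). Vegfa fell in adipose tissue (-1.66, adjusted p = 0.0114). With 1 sample left out, Mmp12 in adipose tissue and Vegfa in skeletal muscle each lost their call in 6 of 9 fits and Mmp13 in skeletal muscle in 3. Leaving out 1 sample gave 5 (without sample 18) to 14 (without sample 16) higher in liver, 2 (without mouse A, mouse B or sample 39) to 9 (without sample 36) higher in adipose tissue, and 2 (without sample 57, 58 or 60) to 11 (without mouse C) lower in skeletal muscle. The difference of the list between tissues was not tested.

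The response side of Il6 was measured better than Il6 itself. In skeletal muscle 7 of 11 genes of its receptor and signaling were lower and 0 higher, where 19.3% of all genes were called, led by the receptor gene Il6ra, from a mean of 70.9 to 13.9 (-2.17, limma adjusted p = 0.00389), with Socs3, Cebpb, Jak1, Stat3, Il6st and Jak2. That count was 3 without sample 57, 58 or 60, 4 without mouse A, and 5 to 7 without any other sample. In liver 3 of 11 were lower (Il6st -0.49, Ptpn11 and Jak1) and Socs1 was higher (0.65), which passed the filter through the old samples alone (young livers at most 0.582). Il6st lost its call in 4 of 9 fits with 1 sample left out, and Socs1 in 4 of the 5 that could test it. In adipose tissue Stat3 was lower (-0.96, adjusted p = 0.0138) and Tyk2 higher (0.62), the latter lost in 6 of 9 fits with 1 sample left out. Gfral, the receptor of Gdf15, had no read in any of the 27 samples. Of the stress regulators listed with Gdf15, Atf3 rose in liver (1.41, limma adjusted p = 0.00626) and adipose tissue (1.92, adjusted p = 0.0406) and fell in skeletal muscle, from a mean of 453.9 to 65.1 (-3.42, adjusted p = 0.0114). The adipose call of Atf3 was lost in 7 of the 9 fits with 1 sample left out, and the other 2 in none. The amino acid response gene Asns fell most in liver (-2.16, adjusted p = 0.00589) and Chac1 most in adipose tissue (-1.66, adjusted p = 0.0176), while Gdf15 itself was not called. In all, 3 were higher and 1 lower of 10 in liver, 1 and 5 of 11 in adipose tissue, and 0 and 3 of 10 in skeletal muscle. Of all genes tested, 19.8%, 19.1% and 19.3% were called in these 3 tissues. The 5 in adipose tissue came down to 1 without mouse A or B and to 2 without mouse C or any of samples 37 to 40.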

How the data were processed

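RNA was measured by poly(A) RNA-seq in 27 samples. Per the labels, libraries were made with a directional kit. Per the methods of the study, gene-level reads came from CLC Genomics Workbench, as the authors ran it. Its annotation and strand setting are not given in the sources used here. The submitters' processing notes name GRCm38.p6 and mm10. The deposited values are a signal headed CPM: CPM divided by a further factor per sample, since sums ran from 559419 to 1395314. In every sample 100% of values were whole multiples of 1 read (tolerance 0.01), and reads were recovered from that step. The design had assumed CPM, and its tests were kept.

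Samples were grouped by labelled tissue and age. The labels do not tie the 20-month samples to animals by name, so p-values measure the spread between samples. Limma 3.58.1 in R 4.3.3, with a variance trend, was fitted on log2(value + 1). Age was fitted within each tissue, and differences between tissues over 27 samples. For members below the filter the test was an exact two-sided permutation over 126 splits of 9 samples. The smallest p is 0.00794. Among the 48 pairs of samples of 1 group, 0 held identical values. The samples of a mouse at 5 months share that mouse, and their deviations correlated by -0.017 to 0.294 (mean 0.136) over 12 pairs. The members and lists were chosen with earlier results of these data known. Named from each list were the called genes with the largest rise and fall in each tissue, with 10 fixed p53 and CDK inhibitor genes and the 3 genes most like each member. Some genes that this rule or the lists hold are not reported here. Other settings were the pseudocounts 0.1 and 0.5, all genes unfiltered, a filter on a mean value of 5, other scalings, weights, edgeR 4.0.16 and DESeq2 1.42.0 on recovered reads, and each sample left out. Tests were tried on simulated reads, where limma and edgeR in liver gave slightly more false calls than their threshold allows, and DESeq2 and the limma test of the difference between tissues gave more, the latter most for pairs with adipose tissue. Gene coordinates and upstream sequences are from RefSeq GRCm38.p6, and 35337 of 36333 gene IDs matched.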

Additional observations from a re-analysis of the deposited data

Results flagged for a closer look

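Single samples stood apart from the rest of their group in 11 of 113 groups of values examined over 19 genes (the 9 members and 10 further p53-linked genes and CDK inhibitors), where chance alone sets about 1 in 20 groups apart.

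Of these, 4 were in liver at 20 months with a good number of reads. Gdf15 was at 85.8 (1687 reads) in sample 16, against 20.2 to 32.3 in the others. Sample 74 had the highest Eda2r (8.07, against 1.58 to 2.56), Phlda3 (11.8, against 2.95 to 4.61) and Mdm4 (110.8, against 42.3 to 47.8). In liver at 5 months, Zmat3 was at 16.6 in mouse A, against 12.1 to 12.3.

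In skeletal muscle, Mdm2 was lowest in sample 59 at 20 months (52.1, against 70.4 to 72.1), and Mdm4 was lowest in mouse C at 5 months (54.2, against 64.6 to 65.9). Glb1 was highest in mouse B at 5 months (3.55, 44 reads, against 2.46 to 2.58), and Cdkn2b in mouse D (1.32, 19 reads, against 0.322 to 0.470). Another 2 rest on 1 read each, Cdkn2a at 0.0735 in skeletal muscle of sample 59 and Il6 at 0.0530 in liver of sample 18, with 0 in the other samples of the group.

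The age change differed between tissues for 3 genes by the interaction test of limma over 27 samples. For Cdkn2a it was -1.40 in liver minus adipose tissue (adjusted p = 0.00417) and 1.62 in adipose tissue minus skeletal muscle (adjusted p = 0.00191). Cdkn2a passed the filter through the old adipose samples alone, and neither difference was called on the recovered reads. For Glb1 the same differences were -0.75 (adjusted p = 0.0316) and 1.12 (adjusted p = 0.00326). For Ccng1 the change in adipose tissue exceeded that in skeletal muscle by 0.78 (adjusted p = 0.0408).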

How the results depend on the processing

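The fall of Cdkn1a in liver and skeletal muscle kept its call in all 11 settings with every sample and in all 9 with 1 left out, and Cdkn2a and Glb1 in adipose tissue kept theirs in every setting with all samples that could test them. A mean value of at least 5 removes Cdkn2a from the test and left 1 member called in adipose tissue, 1 in each difference of adipose tissue from the other tissues, 1 between liver and adipose tissue at 5 months and 3 at 20 months. Sample weights raised the counts, to 2 members in liver, 6 in adipose tissue, 5 for the age change in liver minus adipose tissue and 5 for liver against adipose tissue at 5 months. With age in liver and adipose tissue, weights also raised the number called over all genes, as given below. DESeq2 called 2 members in liver with age. For liver minus adipose tissue a pseudocount of 0.1, the scaling without the 20 most abundant genes, edgeR and DESeq2 each called 1 member, as edgeR and DESeq2 did for adipose tissue minus skeletal muscle. The scaling without the 20 most abundant genes gave 5 members for liver against adipose tissue at 5 months, and turned Mdm2 there to -0.89, Lmnb1 of adipose tissue against skeletal muscle at 5 months to 0.52 and Trp53 of liver against adipose tissue at 20 months to -0.66. The cause of these changes was not tested, except where fewer genes could be tested.

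With each sample left out, the members called ranged from 0 to 3 in adipose tissue with age, from 1 to 2 for liver minus adipose tissue and from 2 to 3 for adipose tissue minus skeletal muscle, and from 1 to 1 with age in liver and in skeletal muscle. The 0 in adipose tissue was without mouse A. Of 65 called genes named from the lists, 27 kept their call with every sample left out in turn: 15 of the 24 in liver, 3 of the 23 adipose ones and 9 of the 18 muscle ones. Taking the mouse as a replicate block (consensus correlation 0.101) 2 members were called for liver minus adipose tissue and 2 for adipose tissue minus skeletal muscle, and the paired fit changed no call of a member. Over all genes, the number called with age moved by more than 1.5 times with sample weights (4454 in liver and 8456 in adipose tissue, from 2508 and 2674), with DESeq2 in adipose tissue (4348) and without a filter in adipose tissue (1525) and skeletal muscle (1507, from 2451). With 1 sample left out, that number ran from 397 (mouse A) to 3748 (sample 36) in adipose tissue, from 959 (sample 18) to 3557 (sample 16) in liver and from 1158 (sample 60) to 3796 (mouse C) in skeletal muscle. Members with 0 to 19 reads per sample were limited by depth.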
